A study of Rattus norvegicus with 4 samples.

Results

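A set of 8 genes linked to mature neutrophils was followed in rat synovium, the tissue that lines the joint. The set holds the stefins Stfa2 and Stfa2l2, the receptors Fpr1, Fpr2 and Hcar2, the membrane protein gene Mcemp1, and Pglyrp1 and Ceacam4, out of 17899 rat genes measured. The genes were chosen by name with their levels in these libraries known, from the contrast of injected with PBS tissue and of the cell sources, so all of their own values below are a description with no test. By symbol 7 of the 8 were found in the table, and Hcar2 was found by its gene ID (353250) under the older symbol Niacr1. A total of 4 bulk RNA libraries were made, each from synovium labelled as osteoarthritic. SyMSC 1 came from tissue injected with human SyMSCs and AdMSC 1 from tissue injected with human AdMSCs, the labels' abbreviations for mesenchymal stem cells of different sources. The control libraries PBS 1 and PBS 2 had received the buffer PBS. Collection followed cell injection by a day. For PBS the labels state no interval, nor do they state strain, age or sex of the rats, how osteoarthritis arose, or whether animals were pooled. The titles join SyMSC 1 with PBS 2 (the Sy title) and AdMSC 1 with PBS 1 (the Ad title), and call the PBS libraries "mix", which they do not explain.

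Neutrophils are short-lived white blood cells that leave the bloodstream for injured tissue, guided by receptors for bacterial and mitochondrial peptides, complement fragments, leukotrienes and chemokines. Stefins are small inhibitors inside cells that block cysteine cathepsins, the papain-like proteases of lysosomes, and in rodents the stefin A genes have multiplied into a cluster, members of which are abundant in mouse neutrophils. Fpr1 and Fpr2 encode receptors for formylated peptides, Hcar2 a receptor for the ketone body 3-hydroxybutyrate and for nicotinic acid, and Pglyrp1 a secreted protein of neutrophil granules that binds bacterial peptidoglycan.

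Levels are TPM, a length-corrected share of each library's transcripts, so genes can be compared with each other. Between 12582 and 13155 genes reached 1 TPM in a library. The read depth is unknown, so no counting interval can be given and low values are imprecise by an unknown amount. A gene may be listed at 0 for reasons other than absence: Col1a2, the gene of an abundant collagen chain, was listed at 0 in SyMSC 1 and at 1.77 TPM in AdMSC 1. Log2 changes are differences of log2(TPM + 1) and understate the change of low genes. In bulk tissue, a change in the number of cells of a type and a change in RNA per cell cannot be told apart.

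The 8 genes together stood at 1401.9 TPM in SyMSC 1 and 677 TPM in AdMSC 1, against 26.2 TPM in PBS 1 and 30.7 TPM in PBS 2. Both injected libraries lay above both PBS libraries for 7 of the 8 genes, the exception being Ceacam4; 33.6% of all genes of the table showed that order, and since the set was chosen from this contrast nothing is read from the count. Stfa2 was the highest of the 8 in both injected libraries, followed by Mcemp1. Hcar2, Pglyrp1 and Stfa2l2 formed a middle group, and Fpr1, Ceacam4 and Fpr2 were low throughout. In the PBS libraries the order was different: Pglyrp1 was the highest of the 8 in both. The filter used for tests across genes, at least 1 TPM in at least 2 libraries, was passed by 6 of the 8, and Fpr2 and Ceacam4 fell below it.

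**Figure D1:**
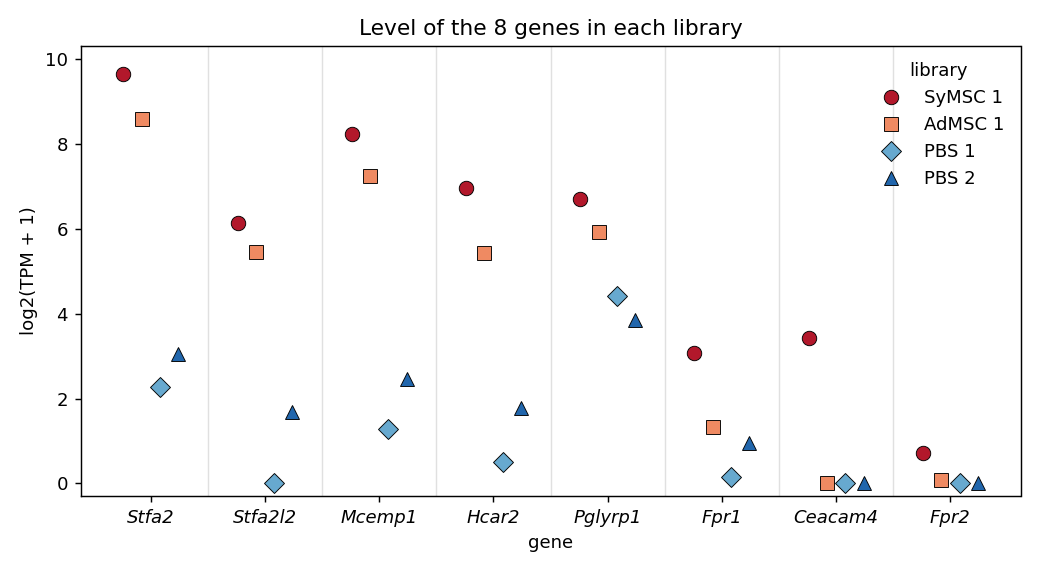
Level of each of the 8 genes, as log2(TPM + 1), with 1 point per library. The injected libraries SyMSC 1 and AdMSC 1 lie far above PBS 1 and PBS 2 for Stfa2, Stfa2l2, Mcemp1 and Hcar2, less far for Pglyrp1 and Fpr1, and Ceacam4 is above 0 in SyMSC 1 alone.

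Stfa2 showed the widest gap of the 8 genes in TPM and, with 1 TPM added, the largest log2 change. Stfa2 (gene ID 303909) had 794.13 TPM in SyMSC 1 and 381.45 TPM in AdMSC 1, against 3.81 TPM in PBS 1 and 7.28 TPM in PBS 2. The lower injected value was 52.4 times the higher PBS value, and the mean log2 change was 6.45. In rank, Stfa2 was the 200th most abundant gene in SyMSC 1 and the 381st in AdMSC 1, against the 10808th in PBS 1 and the 8881st in PBS 2. Its neighbour in the stefin cluster, Stfa2l2 (gene ID 498087), had 69.16 TPM in SyMSC 1 and 42.95 TPM in AdMSC 1, and was listed at 0 in PBS 1 and at 2.19 TPM in PBS 2. The log2 change of Stfa2l2 was 4.96, and its groups did not overlap either. The ratio of Stfa2 to Stfa2l2 was 11.5 in SyMSC 1 and 8.88 in AdMSC 1, against 3.32 in PBS 2. Close copies can share reads, and the labels do not say how such reads were divided, so the split between the stefins is uncertain.

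Other genes of the stefin cluster did not all show this pattern. Csta3 (gene ID 689230, in the table under a LOC identifier), named here after its values were seen, had 33.63 TPM in SyMSC 1 and 23.77 TPM in AdMSC 1 and was listed at 0 in both PBS libraries. Stfa3 had 1.09 TPM in SyMSC 1 and 0.08 TPM in AdMSC 1 and was listed at 0 in both PBS libraries. Stfa2l1 was at 0 in SyMSC 1, PBS 1 and PBS 2 and at 0.12 TPM in AdMSC 1. Stfa2l3 (in the table under a LOC identifier) had 0.06 TPM in SyMSC 1, was at 0 in AdMSC 1 and PBS 2, and had 1.62 TPM in PBS 1. Among the cluster genes that were found, the high levels therefore lay in Stfa2, Stfa2l2 and Csta3, as the authors' processing assigned them. No row was found for the symbols Stfa1 and Csta, so any levels of these are unknown.

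The 250 bases before the gene start of the stefins are shown because these neighbouring genes moved together; they come from RefSeq on the build GRCr8, plus strand, at chr11:78049536-78049785 for Stfa2 and chr11:78003240-78003489 for Stfa2l2. Capitals mark the letters searched: TTGCNNAA, a C/EBP-type motif, and GAGGAA, the core of PU.1-type sites, each on both strands.
Stfa2: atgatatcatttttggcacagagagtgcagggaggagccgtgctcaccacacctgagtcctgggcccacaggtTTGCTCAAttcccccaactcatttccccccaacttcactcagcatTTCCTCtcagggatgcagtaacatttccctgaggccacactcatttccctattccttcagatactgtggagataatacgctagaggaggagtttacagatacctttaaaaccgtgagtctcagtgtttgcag
Stfa2l2: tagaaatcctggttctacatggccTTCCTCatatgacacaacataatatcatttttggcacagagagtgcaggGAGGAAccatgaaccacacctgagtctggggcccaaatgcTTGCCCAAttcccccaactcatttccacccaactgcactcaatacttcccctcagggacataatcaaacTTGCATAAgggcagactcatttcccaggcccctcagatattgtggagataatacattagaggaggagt
In a global alignment with free ends these windows paired 208 bases, 82.7% of them identical, and shared an unbroken run of 33 bases. The C/EBP letters occurred once in the Stfa2 window and at 2 places in the Stfa2l2 window, and the GAGGAA letters once and at 2 places. TTGCNNAA was found in 3 of the 7 windows available for the set (Fpr2, Stfa2 and Stfa2l2; Hcar2 had no entry), against 9.22% of 33469 rat windows of this length. GAGGAA was found in 6 of the 7, all but Mcemp1, against 23.3% of all windows. TGANTCA, an AP-1-type motif, was found in 1 of 7 (Pglyrp1), against 6.34%, and TATAAA in 1 of 7 (Fpr2), against 12.9%. No matches overlapped in these windows. The stefin windows are related sequences, so they are not separate occurrences, and a match describes letters, not a bound site.

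Mcemp1 (gene ID 498128) encodes a membrane protein first described in mast cells and, in humans, also known from neutrophils and monocytes. It had 296.35 TPM in SyMSC 1 and 149.92 TPM in AdMSC 1, against 1.42 TPM in PBS 1 and 4.53 TPM in PBS 2. The lower injected value was 33.1 times the higher PBS value (log2 change 5.86). The 8 mast cell markers were lower in sum after injection and summed to 16.3 TPM in SyMSC 1 and 35.5 TPM in AdMSC 1, against 70.6 TPM in PBS 1 and 80.9 TPM in PBS 2, with 5 of 8 at 1 TPM or more in each injected library and 7 and 6 of 8 in PBS 1 and PBS 2. Mcpt1 was listed at 0 in SyMSC 1, AdMSC 1 and PBS 2. The ratio of Stfa2 to Mcemp1 was 2.68 in SyMSC 1 and 2.54 in AdMSC 1, against 2.68 in PBS 1 and 1.61 in PBS 2.

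Among the receptors, Hcar2 was the most abundant. It had 122.52 TPM in SyMSC 1 and 41.65 TPM in AdMSC 1, against 0.42 TPM in PBS 1 and 2.44 TPM in PBS 2, a log2 change of 5.04 with no overlap. Hcar2 is also known from adipocytes, where nicotinic acid acts through it to restrain fat breakdown. The 7 adipocyte markers summed to 377 TPM in SyMSC 1 and 277 TPM in AdMSC 1, against 352 TPM in PBS 1 and 1283.6 TPM in PBS 2, none of them at 0 in every library. The receptor Hcar1, which senses lactate and is typical of adipocytes (gene ID 689936, in the table as Gpr81), had 0.24 TPM in SyMSC 1 and 0.34 TPM in AdMSC 1, against 1.66 TPM in PBS 1 and 2.30 TPM in PBS 2. Hcar1 was lower after injection (log2 change -1.20, SE 0.20, limma adjusted p = 0.00416), while its neighbour in the same family was high there.

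The formyl peptide receptors were scarce. Fpr1 (gene ID 292409) had 7.44 TPM in SyMSC 1 and 1.50 TPM in AdMSC 1, against 0.11 TPM in PBS 1 and 0.93 TPM in PBS 2. AdMSC 1 lay 1.61 times above PBS 2, so the groups were separate by little, and the log2 change of 1.65 became 0.77 without SyMSC 1 and 2.53 without AdMSC 1. Fpr2 (gene ID 690158) had 0.64 TPM in SyMSC 1 and 0.06 TPM in AdMSC 1 and was listed at 0 in both PBS libraries, too low for a fold. Fpr3 lay at or below 0.15 TPM in every library. At the levels of Fpr2 and Fpr3 the values bear no comparison among libraries.

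Other parts of the same signalling route were far more abundant. Of 32 genes of formyl peptide receptor signalling, 28 passed the test as higher after injection, 2 as lower and 2 did not pass; over all 13371 genes tested with limma, 23.7% were called higher, 24.7% lower and 48.4% in either direction. Their median log2 change was 1.28, against 0.00 over all genes tested. The tyrosine kinase gene Fgr had 245 TPM in SyMSC 1 and 186 TPM in AdMSC 1, against 29.6 TPM in PBS 1 and 25.2 TPM in PBS 2 (log2 change 2.92, SE 0.17, limma adjusted p = 0.000277). The exchange factor gene Vav1 rose by 2.68 on that scale (limma adjusted p = 0.000303), and the NADPH oxidase subunit gene Ncf4 (2.86, limma adjusted p = 0.000486) rose with it. The 2 genes that fell, named after their values were seen, encode, in humans, sources of peptides that act on FPR2. Anxa1, the annexin whose peptides act on this receptor, had 349 TPM in SyMSC 1 and 411 TPM in AdMSC 1, against 725 TPM in PBS 1 and 606 TPM in PBS 2 (log2 change -0.81, limma adjusted p = 0.00713). App, the precursor of amyloid peptides, stood at -0.69 (limma adjusted p = 0.0124), a call that ended without PBS 2 (-0.52, limma adjusted p = 0.0731). Many of these signalling genes are shared by macrophages and other leukocytes.

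Pglyrp1 (gene ID 84387) differed from the rest of the set in its PBS level. It had 101.97 TPM in SyMSC 1 and 59.51 TPM in AdMSC 1, against 20.47 TPM in PBS 1 and 13.34 TPM in PBS 2. The groups did not overlap, the lower injected value was 2.91 times the higher PBS value, and the log2 change was 2.17. Of the 8 genes it was the one that was higher in PBS 1 than in PBS 2. Its window is shown because it held GAGGAA letters at 2 places (read on the other strand as TTCCTC) and TGANTCA at 1, marked in capitals; the 250 bases lie at chr1:87659613-87659862, GRCr8, plus strand, per RefSeq.
Pglyrp1: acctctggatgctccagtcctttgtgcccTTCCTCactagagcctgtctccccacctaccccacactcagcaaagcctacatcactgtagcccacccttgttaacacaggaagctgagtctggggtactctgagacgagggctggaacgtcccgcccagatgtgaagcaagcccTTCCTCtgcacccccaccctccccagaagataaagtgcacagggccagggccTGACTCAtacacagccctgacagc
A set of 9 granule genes of neutrophils and their precursors (Mpo, Elane, Prtn3, Ctsg, Camp, Ngp, Np4, Defa5 and RatNP-3b), picked after their values were seen, summed to 170 TPM in SyMSC 1 and 50.05 TPM in AdMSC 1, against 318 TPM in PBS 1 and 44.7 TPM in PBS 2. Their order, with PBS 1 above SyMSC 1, differed from that of Pglyrp1. Fcnb, the gene of the granule lectin ficolin B, is not among the 9 and had the order of Pglyrp1, with 176.06 TPM in SyMSC 1 and 113.96 TPM in AdMSC 1, against 40.85 TPM in PBS 1 and 13.22 TPM in PBS 2 (log2 change 2.55, SE 0.66, limma adjusted p = 0.0524, not called). With Fcnb added, the sum was 345.5 TPM in SyMSC 1 and 164 TPM in AdMSC 1, against 358.3 TPM in PBS 1 and 57.95 TPM in PBS 2, so that SyMSC 1 lay close to PBS 1 and AdMSC 1 above PBS 2. Erythroid markers, a sign of blood or marrow in the tissue, were likewise highest in PBS 1 and next in SyMSC 1: 11254.3 TPM in SyMSC 1 and 5314.2 TPM in AdMSC 1, against 21723.3 TPM in PBS 1 and 7670.8 TPM in PBS 2. The part of blood in the Pglyrp1 values was not tested.

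Among the relatives of Pglyrp1, Pglyrp4 had 3.41 TPM in SyMSC 1 and 1.48 TPM in AdMSC 1, against 0.57 TPM in PBS 1 and 0 in PBS 2 (log2 change 1.40, SE 0.35, limma adjusted p = 0.0211). That call ended with a pseudocount of 0.1 (limma adjusted p = 0.0549), with the title word as a block (0.0512), without SyMSC 1 (0.087) and without PBS 2 (0.0815). Pglyrp2 did not exceed 0.16 TPM in any library. Of 18 genes of peptidoglycan sensing that were tested, 15 were called higher, 1 lower and 2 did not pass, with a median log2 change of 1.44. Over all genes tested, 23.7% were called higher and 24.7% lower, with a median of 0.00. Of the sensor genes Nod1 and Nod2, Nod1 did not pass (log2 change -0.21, limma adjusted p = 0.277) and Nod2 rose (2.06, limma adjusted p = 0.00541). The list also counts genes of wider use in myeloid cells, such as Cd14, a macrophage and monocyte marker. Trem1, a receptor on neutrophils and monocytes for which Pglyrp1 has been described as a ligand, had 208 TPM in SyMSC 1 and 185 TPM in AdMSC 1, against 25.4 TPM in PBS 1 and 26.1 TPM in PBS 2 (log2 change 2.88, SE 0.13, limma adjusted p = 0.000187). The receptor genes for bacterial lipopeptides rose as well, Tlr1 by 4.06, Tlr6 by 2.99 and Tlr2 by 2.41 on the log2 scale (limma adjusted p = 0.000246, 0.00028 and 0.000419). Amigo2, an adhesion protein gene on that list and the 1 that fell, stood at -1.59 (limma adjusted p = 0.000947).

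Ceacam4 (gene ID 287009) was above 0 in 1 library alone, with 9.69 TPM in SyMSC 1, and was listed at 0 in AdMSC 1, PBS 1 and PBS 2. It belongs to the carcinoembryonic antigen family of immunoglobulin-like proteins, and RefSeq lists Ceacam10 as another symbol of this rat gene, so roles known for human CEACAM4 need not hold for it. With 1 library above 0, the value has no replicate. Ceacam1, an adhesion receptor of epithelium, vessels and leukocytes, went the other way, with 6.87 TPM in SyMSC 1 and 6.52 TPM in AdMSC 1, against 14.29 TPM in PBS 1 and 13.72 TPM in PBS 2 (log2 change -0.96, SE 0.14, limma adjusted p = 0.00298). Ceacam18 was near 1 TPM in all 4 libraries and did not pass (limma adjusted p = 0.148), and Ceacam9 and Ceacam16 stayed at or below 0.56 TPM.

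By cell source, all 8 genes were higher in SyMSC 1 than in AdMSC 1, an order shown by 35.1% of all genes of the table. Each source has 1 library, so there is no replicate check, and the order was part of how the set was chosen. The ratio of TPM was 2.94 for Hcar2, 2.08 for Stfa2, 1.98 for Mcemp1, 1.71 for Pglyrp1 and 1.61 for Stfa2l2. Under a rule of at least a 2-fold ratio of TPM + 1 with the higher value at least 5 TPM, 4 of the 8 were listed as higher in SyMSC 1 (Stfa2, Hcar2, Fpr1 and Ceacam4), against 0.838% of all genes, while 0.413% of all genes were listed as higher in AdMSC 1. Of these 4, Fpr1 and Ceacam4 had low levels in SyMSC 1 (7.44 and 9.69 TPM), which are imprecise at the unknown depth. The PBS libraries give the spread between tissues labelled as injected with PBS: 5 of the 8 were higher in PBS 2 than in PBS 1 (44.2% of all genes were). For Mcemp1 and Stfa2l2 the log2 difference between the sources (0.98 and 0.67) was smaller than that between the PBS libraries (1.19 and 1.67). For Stfa2 it was larger, at 1.06 between the sources against 0.78 between PBS 2 and PBS 1, and at 1.06 against 0.92 with a pseudocount of 0.1. For Hcar2 and Fpr1 the order depended on the pseudocount. With 1 TPM added, the differences of Hcar2 and Fpr1 were 1.53 and 1.76 between the sources against 1.28 and 0.80 between PBS 2 and PBS 1. With 0.1 TPM added, they were 1.55 and 2.24 between the sources against 2.29 for each between PBS 2 and PBS 1. For Pglyrp1 it was 0.77 between the sources and -0.58 between PBS 2 and PBS 1. Measured within titles, Stfa2 was 6.59 above its PBS library under the Sy title and 6.31 under the Ad title, and Hcar2 5.17 and 4.91. Stfa2l2 (4.46 and 5.46) and Mcemp1 (5.75 and 5.96) had the larger difference under the Ad title, and Pglyrp1 (2.84 and 1.49) and Fpr1 (2.13 and 1.17) under the Sy title.

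**Figure D2:**
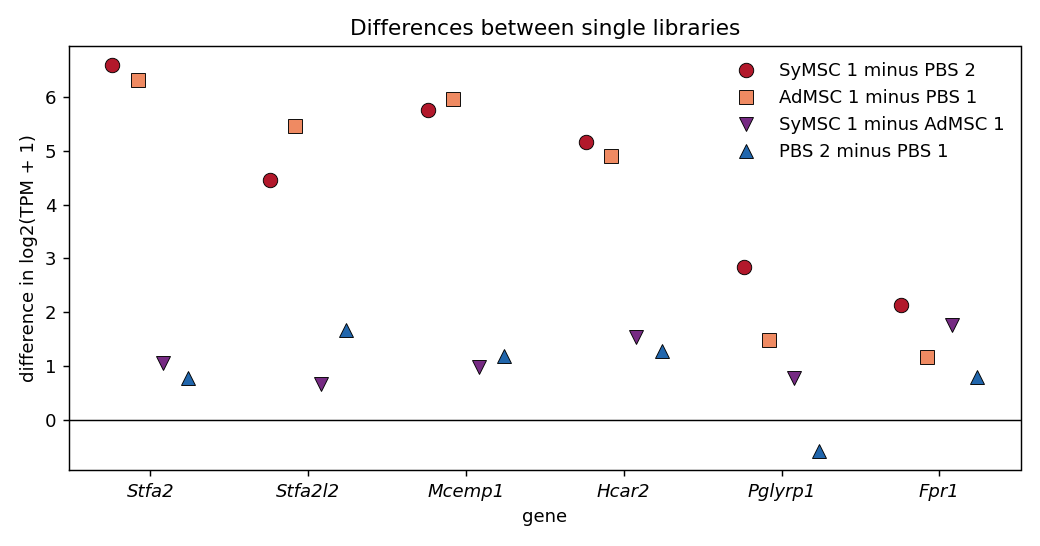
Differences in log2(TPM + 1) between single libraries for the 6 genes with a level above 0 in a PBS library. Each injected library minus the PBS library of its title (red circles, orange squares) exceeds 4 for Stfa2, Stfa2l2, Mcemp1 and Hcar2, while the differences between cell sources and between PBS libraries lie between -0.58 and 1.76.

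Other genes known from neutrophils were set beside the 8 genes. Of 29 further mature neutrophil genes that were tested, 22 were called higher, 0 lower and 7 did not pass. At an unadjusted limma p under 0.05, 0 were lower as well. The median log2 change of the 29 was 2.59, against 0.00 over all genes tested. Over all genes tested, 23.7% were called higher and 24.7% lower. Csf3r, which encodes the G-CSF receptor, had 538 TPM in SyMSC 1 and 418 TPM in AdMSC 1, against 4.73 TPM in PBS 1 and 11.7 TPM in PBS 2 (log2 change 5.80, SE 0.44, limma adjusted p = 0.00179). The decoy interleukin 1 receptor gene Il1r2 (5.75, limma adjusted p = 0.00994) was not called without SyMSC 1 (adjusted p = 0.0742) or AdMSC 1 (0.0598). The chemokine receptor gene Cxcr2 (5.64, limma adjusted p = 0.00715) was not called without SyMSC 1 (0.0569), and the lectin receptor gene Clec4e (5.37, limma adjusted p = 0.00934) was not called without PBS 1 (0.1) or PBS 2 (0.0823). The collagenase gene Mmp8, stored in neutrophil granules, did not pass, with 81.25 TPM in SyMSC 1 and 16.39 TPM in AdMSC 1, against 7.68 TPM in PBS 1 and 2.25 TPM in PBS 2 (log2 change 2.83, limma adjusted p = 0.128). Cd177 (log2 change -0.45, limma adjusted p = 0.578) and Retnlg (0.12, limma adjusted p = 0.942) did not pass either. Both were highest in PBS 1, at 2.48 and 4.48 TPM, with 1.17 and 3.73 TPM in SyMSC 1. The change was above 0 for 28 of the 29. By source, 27 of the 29 were higher in SyMSC 1 than in AdMSC 1, with a median log2 difference of 0.85, against 34.3% of all genes tested and a median of -0.09.

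The 5 neutrophil markers Csf3r, Cxcr2, Il1r2, Mmp8 and Trem1 summed to 1528.6 TPM in SyMSC 1 and 989 TPM in AdMSC 1, against 41.8 TPM in PBS 1 and 54.4 TPM in PBS 2, and none was at 0. Set against that sum, Stfa2 came to 51.95% in SyMSC 1 and 38.6% in AdMSC 1, against 9.11% in PBS 1 and 13.4% in PBS 2. Mcemp1 came to 19.4% and 15.2% in SyMSC 1 and AdMSC 1, against 3.40% in PBS 1 and 8.33% in PBS 2. Hcar2 did not follow that order, with 8.02% in SyMSC 1 and 4.21% in AdMSC 1, against 1.004% in PBS 1 and 4.49% in PBS 2. Fpr1 was highest in PBS 2, with 0.487% in SyMSC 1 and 0.152% in AdMSC 1, against 0.263% in PBS 1 and 1.71% in PBS 2. Pglyrp1 was lower in both injected libraries by this measure, with 6.67% in SyMSC 1 and 6.02% in AdMSC 1, against 48.95% in PBS 1 and 24.5% in PBS 2. Stfa2l2 differed little among the libraries in which it was above 0, at 4.52% in SyMSC 1 and 4.34% in AdMSC 1, against 4.03% in PBS 2. It was listed at 0 in PBS 1. The make-up of the marker sum was not the same in the libraries. Trem1, also found on monocytes, was its largest part in PBS 1 (25.45 TPM) and PBS 2 (26.12 TPM). In SyMSC 1 Trem1 gave 208 TPM, below Csf3r (538 TPM), Il1r2 (423 TPM) and Cxcr2 (279 TPM). In AdMSC 1 it gave 185 TPM, below Csf3r (418 TPM) and Il1r2 (216 TPM). All these shares depend on that make-up and are not levels per neutrophil. Macrophage and monocyte markers summed to 4054.8 TPM in SyMSC 1 and 3982.2 TPM in AdMSC 1, against 2844.3 TPM in PBS 1 and 3692.0 TPM in PBS 2, with all 9 at 1 TPM or more in every library. Synovial fibroblast markers, a check of the tissue label, were all 8 at 1 TPM or more in every library and summed to 7312.3 TPM in SyMSC 1 and 10979.2 TPM in AdMSC 1, against 22825.6 TPM in PBS 1 and 18008.5 TPM in PBS 2. The part of these cell types in the values of the 8 genes was not tested.

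**Figure D3:**
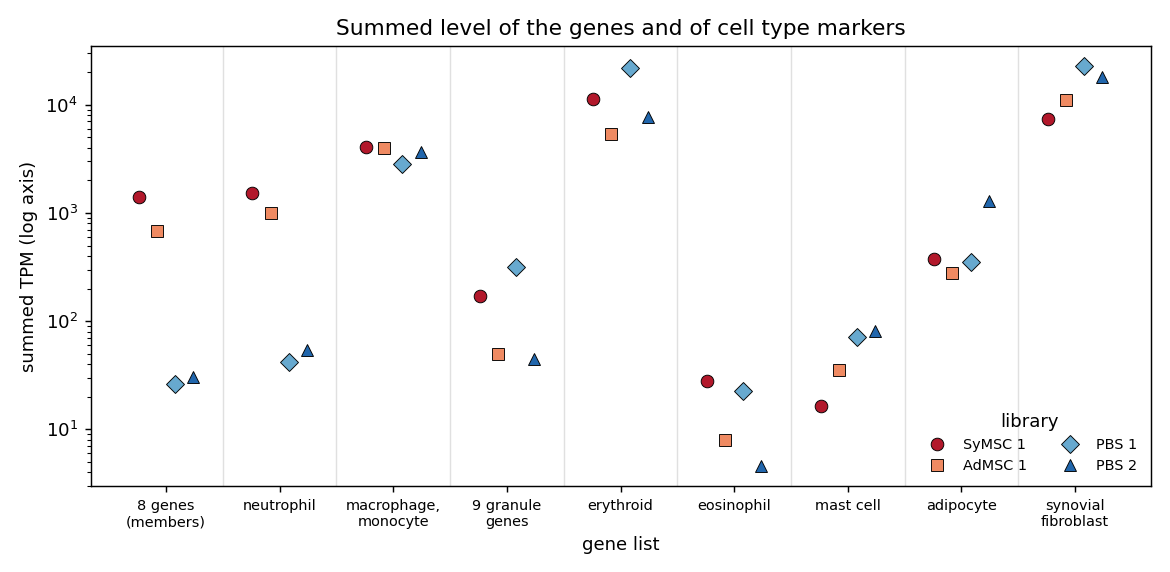
Summed TPM (log axis) of the 8 genes, of cell type markers and of 9 granule genes, with 1 point per library. The 8 genes and the neutrophil markers separate SyMSC 1 and AdMSC 1 from both PBS libraries, whereas granule, erythroid and eosinophil genes are highest in SyMSC 1 and PBS 1.

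Few granule and precursor genes passed the test. Of 13 tested, 1 was called higher, 0 lower (0 also at an unadjusted p under 0.05) and 12 did not pass, with a median log2 change of -0.28. Over all genes tested, 23.7% were called higher and 24.7% lower. Several of the 13 varied widely within an arm, such as Ngp (SE 1.66) and Np4 (SE 1.36), so not passing does not show that they were unchanged. By source, all 13 were higher in SyMSC 1 than in AdMSC 1, as all 8 genes of the set were, with a median log2 difference of 1.53 (34.3% and -0.09 over all genes tested). The 1 that rose was Cebpe, a transcription factor gene of granulocyte maturation, with 13.37 TPM in SyMSC 1 and 12.21 TPM in AdMSC 1, against 2.37 TPM in PBS 1 and 2.49 TPM in PBS 2 (log2 change 2.01, SE 0.16, limma adjusted p = 0.000499). Of 14 tested transcription factor genes of myeloid cells, 12 were called higher, 1 lower and 1 did not pass, with a median of 1.46. Cebpb, which drives emergency granulocyte production, had 1073 TPM in SyMSC 1 and 618 TPM in AdMSC 1, against 47.2 TPM in PBS 1 and 106 TPM in PBS 2 (log2 change 3.50, limma adjusted p = 0.012), and was not called without SyMSC 1 (0.0964) or AdMSC 1 (0.0645). Cebpa rose by 2.51 (limma adjusted p = 0.00338), and Mxd1, a repressor that opposes MYC, by 3.25 (limma adjusted p = 0.0238; 0.16 without PBS 1 and 0.146 without PBS 2). Klf2, which fell, stood at -0.70 (limma adjusted p = 0.0178) and was not called without PBS 2 (0.0758).

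**Figure D4:**
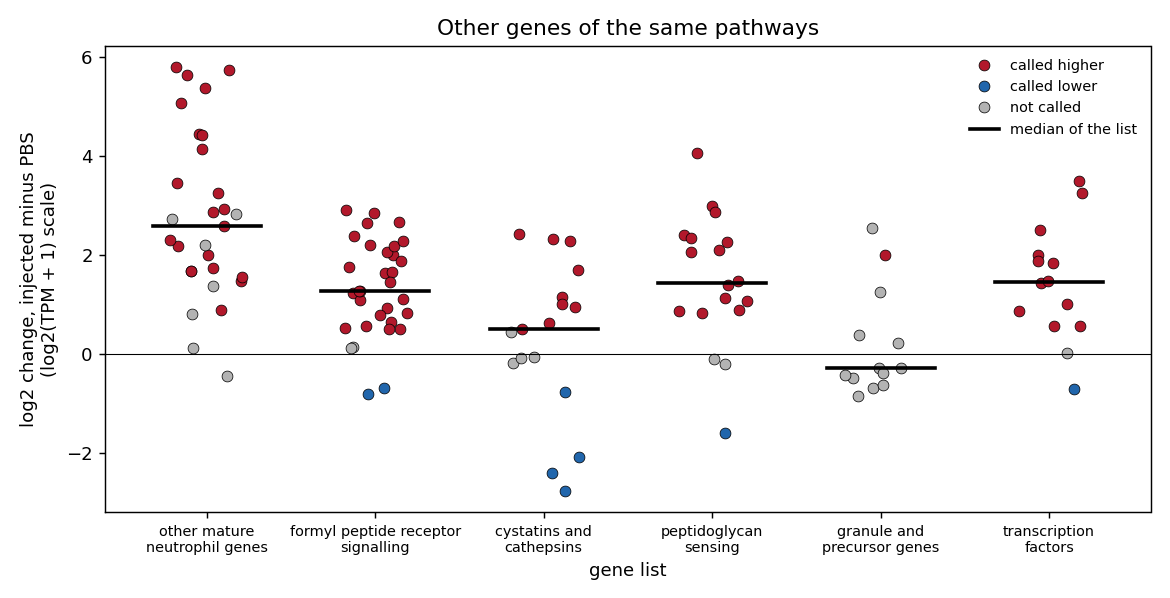
Log2 change, injected minus PBS, of each tested gene in 6 lists that exclude the 8 genes, with calls at a limma adjusted p under 0.05 in colour and the median of each list as a bar. Medians run from -0.28 for granule and precursor genes to 2.59 for other mature neutrophil genes.

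Of 17 cystatin and cathepsin genes, inhibitors and proteases around the stefins, 9 were called higher, 4 lower and 4 did not pass, with a median log2 change of 0.51. Over all genes tested 23.7% were called higher and 24.7% lower, so the 4 lower calls are near the background. Cstb, the stefin B gene found in most cells, had 1390.38 TPM in SyMSC 1 and 1265.14 TPM in AdMSC 1, against 576.19 TPM in PBS 1 and 607.38 TPM in PBS 2 (log2 change 1.16, SE 0.12, limma adjusted p = 0.00106). It was the more abundant stefin in all 4 libraries, at a smaller change than Stfa2. Cst3, the gene of the secreted inhibitor cystatin C, fell to 1825 TPM in SyMSC 1 and 1978 TPM in AdMSC 1, against 8762 TPM in PBS 1 and 11586 TPM in PBS 2 (log2 change -2.41, SE 0.17, limma adjusted p = 0.00035). Ctsk, the collagen-degrading cathepsin K of osteoclasts and synovial fibroblasts, stood at -2.77 (limma adjusted p = 0.000701), the cystatin gene Cst6 at -2.08 (limma adjusted p = 0.000618) and Ctsh at -0.76 (limma adjusted p = 0.00964). The protease genes Ctsz (2.43, limma adjusted p = 0.000239) and Lgmn (2.33, limma adjusted p = 0.000257), which encodes legumain, rose.

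The genes whose levels over the 4 libraries were most like the mean centred profile of the 8, by Euclidean distance on the log2(TPM + 1) scale, were Sorl1 (distance 0.26), Cxcr4 (0.32), Lilrc2 (0.33), Rufy4 (0.33) and Arhgap25 (0.40). Sorl1, a sorting receptor gene, had 32.7 TPM in SyMSC 1 and 11.01 TPM in AdMSC 1, against 0.72 TPM in PBS 1 and 1.34 TPM in PBS 2. Cxcr4, the receptor that holds neutrophils in bone marrow, had 348 TPM in SyMSC 1 and 174 TPM in AdMSC 1, against 18.2 TPM in PBS 1 and 23.6 TPM in PBS 2. The members themselves lay farther from their mean, from 1.58 for Hcar2 to 3.20 for Fpr2. With 4 libraries such distances describe these libraries alone.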

How the data were processed

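Messenger RNA of 4 synovium libraries was captured with oligo-dT beads, primed with random hexamers, marked on the second strand with dUTP and sequenced on a BGISEQ-500, per the labels' protocols. The authors deposited TPM values, per the file headers, with 1 column a library, and every column has the same sum over the rat genes. HISAT2 2.0.4 and the build Rnor_6.0 are named, per the submitters' processing notes, with no role. The counter, annotation, use of strand and any separation of human from rat reads are not stated there or in the labels. TPM is a share, so abundant genes that gain take from the rest.

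Gene names follow the table; 16718 of 17899 IDs were found in RefSeq's GRCr8 table, used for names and for the 250 bases before 7 of the 8 gene starts. The 8 genes and all lists were chosen with earlier results of these data known. The fit, limma 3.58.1 in R 4.3.3 with trend and robust options, took log2(TPM + 1) of the 13371 genes that reached 1 TPM in 2 or more libraries. It set the 2 injected libraries, sources joined, against the 2 PBS libraries, which leaves 2 residual degrees of freedom, and adjusted by Benjamini-Hochberg; calls are at an adjusted p under 0.05. The fit was also run on simulated data with the same noise for every gene. Real genes differ in their spread, so that run is no check of the calls given here. The labels do not say that animals were separate, so the spread behind each p-value may be technical. Named genes were the 8, family relatives and the 5 most alike profiles. Per list, up to 4 called genes with the largest change and at least 5 TPM were also named. Further genes outside this rule are named with their values known, and not all are marked where they appear. Such unmarked genes include Ctsh, Amigo2, Klf2, Nod1, Nod2, Mmp8, Cd177, Retnlg and Cst6, which lies below 5 TPM in both arms. Not every gene that the rule picks is reported here. Some genes sit on more than 1 list. Alternatives were a pseudocount of 0.1, median-ratio (RLE) and upper-quartile scaling, no filter, the title word as a block, and each library left out.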

Additional observations from a re-analysis of the deposited data

Results flagged for a closer look

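Some marker sums moved in opposite directions under the Sy and the Ad title, with 1 library against 1 each time, so the difference was not tested. On the log2(TPM + 1) scale, the 9 granule genes differed by 1.90 for SyMSC 1 minus PBS 2 and by -2.64 for AdMSC 1 minus PBS 1. These 9 were picked after their values were seen; with Fcnb added, a choice made after seeing the data, the sum differed by 2.56 for SyMSC 1 minus PBS 2 and by -1.12 for AdMSC 1 minus PBS 1. The full list of granule and precursor genes, whose sum is mostly Lbp, differed by 0.78 for SyMSC 1 minus PBS 2 and by -0.24 for AdMSC 1 minus PBS 1. Erythroid markers differed by 0.55 for SyMSC 1 minus PBS 2 and by -2.03 for AdMSC 1 minus PBS 1. Eosinophil markers differed by 2.38 for SyMSC 1 minus PBS 2 and by -1.40 for AdMSC 1 minus PBS 1. None of the 8 genes moved in opposite directions under the titles.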

How the results depend on the processing

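The log2 changes of the 6 genes with a fold kept their sign under every alternative run. With a pseudocount of 0.1, Fpr1 became 2.90 and Stfa2l2 6.83, since their PBS values lie near 0. Stfa2l2 then exceeded Stfa2, which stood at 6.68. The same pseudocount made the PBS 2 minus PBS 1 difference of Hcar2 and of Fpr1 (2.29 each) larger than their difference between sources (1.55 and 2.24). The number of genes called higher ran from 2201 to 2423 and lower from 2230 to 2956 with 1 library left out, against 3173 and 3303 with all. The labels number no replicates, so the numbers used here are names that pair nothing. With the title word as a replicate block in limma, 3250 genes were called higher and, of the genes named in the text with a test, the call of Pglyrp4 ended. Granule genes called higher became 2 under median-ratio scaling, under upper-quartile scaling and with no filter (Cebpe and Fcnb each time), and ran from 1 to 2 with a library left out. Genes of formyl peptide receptor signalling called lower ran from 1 to 2, and transcription factor genes called lower from 0 to 1, in both cases lowest without PBS 2. At a ratio of at least 3, 43 genes were listed as higher in SyMSC 1 and 17 as higher in AdMSC 1, against 150 and 74 at 2, because the limit is stricter. The unknown depth limits Fpr1, Fpr2 and Ceacam4 most.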
